A study of Mus musculus with 20 samples.

Results

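Tcf7, Bcl11b, Runx3, Ikzf1, Ikzf3, Tbx21, Rora, Maf and Sox13 are transcription factors known for their roles in T cell lineages. They were taken by gene name from a table of normalised read counts for 53380 genes, and all 9 were found and passed the filter on low values, which 17204 genes did. The table holds 20 bulk RNA-seq libraries of 5 cell populations sorted from mouse dorsal epidermis. There were 5 libraries of dendritic epidermal T cells (DETCs; α6-, Sca1low, Thy1+), 4 of hair follicle stem cells (HFSCs; α6+, Sca1-, CD34+), 4 of Thy1hi keratinocytes and 4 of Thy1- keratinocytes (both α6+ and Sca1+), and 3 of YFP+ Thy1hi keratinocytes.

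The labels give the genotype Thy1.2CreERT2-Rosa26-EYFP and no treatment for every sample. The methods of the study describe wild-type C57BL/6J mice for the 4 populations without YFP. Labelled ages run from 8 to 27 weeks, rising from sample to sample without overlap between populations, while the methods give 8-week-old mice. Were these labels right, age and population could not be told apart. The YFP+ cells came from animals in which a CreERT2 under a Thy1 promoter had been induced to switch on EYFP. They are thus Thy1hi cells in which that promoter had been active, though not necessarily all such cells. Their label calls them Sca1-, while their names and the methods call them Sca1+. Some legends of the study mention pooled mice, while another counts mice per population, with numbers that differ from the libraries used here for DETCs and HFSCs. How many mice are behind each library was not settled, so p-values measure the spread between these libraries, which may be technical. The labels give no numbers for 2 DETC libraries that match their column names, and these are called a and b.

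DETCs are γδ T cells that form in the fetal thymus and persist among keratinocytes. TCF-1 (Tcf7) and Bcl11b commit thymic precursors to the T lineage, Runx3 is needed for DETCs and for retention in epithelia, and Ikaros (Ikzf1) and Aiolos (Ikzf3) are zinc finger factors of lymphoid cells. T-bet (Tbx21) drives type 1 programmes such as interferon-γ, and RORα (Rora), c-Maf (Maf) and Sox13 are best known in γδ cells for the type 17 programme. Several of these genes also work outside T cells, Bcl11b, Maf and Rora in skin among other tissues.

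The sort was checked on marker genes. All 9 T cell markers were higher in DETCs than in Thy1hi cells, and in the other 15 libraries their summed level was between 0.484% and 1.67% of the DETC mean. All 6 keratinocyte markers were lower in DETCs, but not absent: their sum in the DETC libraries was 5.11% to 23.5% of the Thy1hi mean. Langerhans cell markers were present in every population, with 0 of 5 called by limma between DETCs and Thy1hi cells. In the same comparison 2 of 3 tested melanocyte markers, 1 of 2 endothelial markers and the 1 NK cell marker tested were higher in DETCs. That NK cell marker passed the filter through DETC libraries alone, which favours such a call. In this comparison 0 markers of hair follicle stem cells, macrophages, fibroblasts and B cells were called. The part of such cells in the results was not tested. The αβ T cell genes Trac and Cd8b1 were higher in DETCs than in every other population and Cd4 than in all but Thy1- cells. Their summed levels were 78.1 to 238 normalised counts in DETCs and 1.10 to 17.3 in the other populations. None of these αβ genes would have passed the filter on low values without the DETC libraries, which favours such calls. Libraries held 7781256 to 12982393 reads on genes, of which 13.1% to 41.5% lay on Rn45s. DETC library a stood apart, with Krt14 at 0.240 times the mean of the other DETC libraries, Ptprc at 1.94 times and Trdc at 1.86 times. Cd8a went the other way in it, at 0.691 times. Library b differed as well, with Cd8a at 0.0768 times the others, Ptprc at 0.527 times and Cd3e at 0.692 times. Its Trdc was at 0.917 times and its Krt14 at 1.32 times. HFSC library 4 had the lowest Rn45s share and a summed Langerhans marker level of 61.0 normalised counts, against 2025 to 4306 in the other HFSC libraries.

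The 9 factors fell into 2 kinds. Tcf7, Runx3, Ikzf1, Ikzf3 and Tbx21 had their highest means in DETCs. In each of them all 5 DETC libraries lay above all 15 others, which 12.1% of the genes tested did. These 5 are called high in DETCs below for that separation, not for their level. Rora, Maf, Bcl11b and Sox13 each had a higher mean in at least 1 other population than in DETCs. In a bulk sample, a smaller number of expressing cells and less RNA per cell cannot be told apart.

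**Figure D1:**
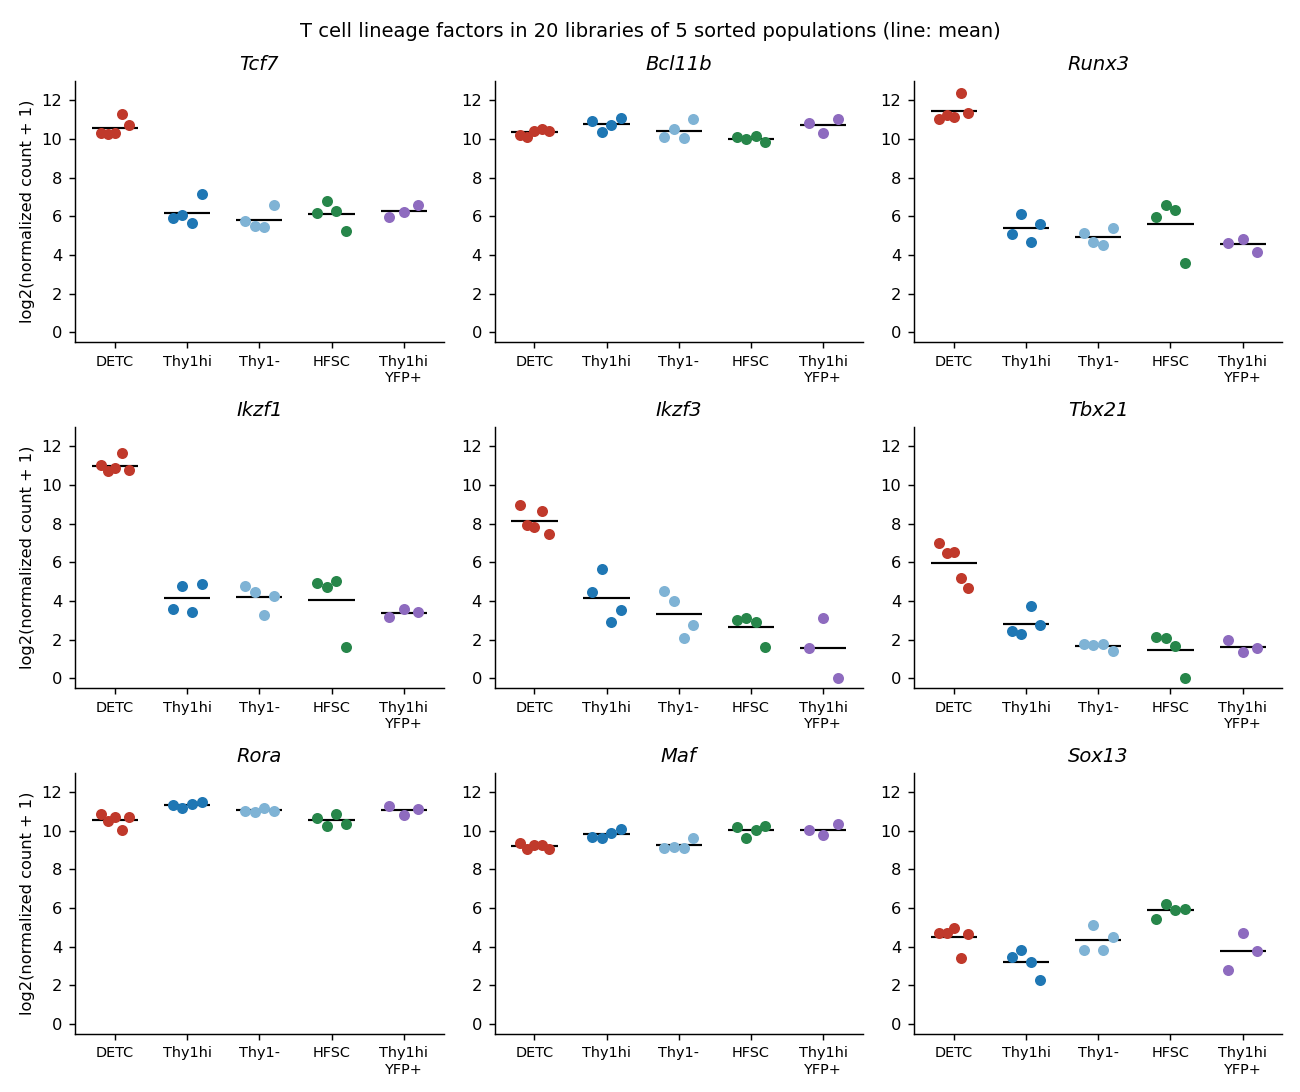
Each panel plots log2(normalised count + 1) of a gene in the 20 libraries by population, each point a library and each line the mean of the log values. Tcf7, Runx3, Ikzf1, Ikzf3 and Tbx21 separate the 5 DETC libraries from the rest, while the points of Bcl11b, Rora and Maf lie near the same height in all populations and Sox13 is highest in the 4 HFSC libraries.

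In limma fits over the whole table (log2 scale, Benjamini-Hochberg adjustment across the 17204 tested, called under 0.05), 6 factors were higher and 2 lower in DETCs than in Thy1hi cells, where 19.9% of all genes were higher and 16.6% lower. Against Thy1- cells 5 were higher and 1 lower, with 18.9% and 15.2% of all genes. Against HFSCs 5 were higher and 2 lower, with 21.2% and 18.5% of all genes, and against YFP+ cells 5 and 2, with 20.5% and 17.6%. The same 5 genes were higher in all 4 comparisons, which share the DETC libraries. The median log2 difference of the 9 factors from Thy1hi cells was 3.16, against -0.0044 for all genes tested.

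**Figure D2:**
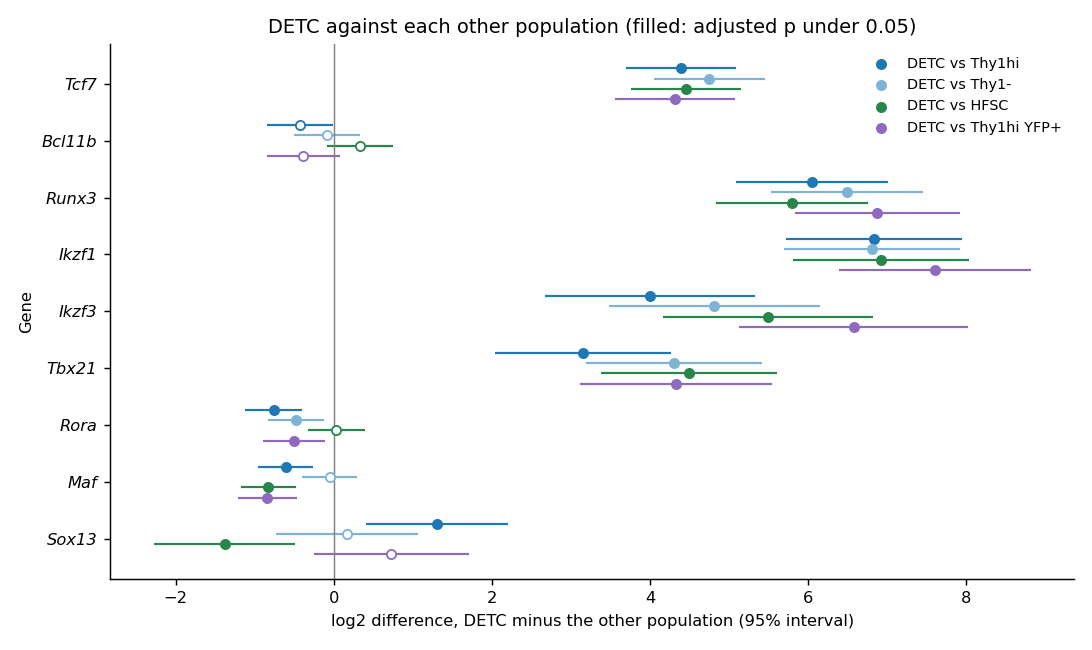
The x axis gives the log2 difference of DETCs from each other population with its 95% interval, and the y axis the gene. Filled points passed an adjusted p of 0.05. Tcf7, Runx3, Ikzf1, Ikzf3 and Tbx21 lie between 3.16 and 7.60 in all 4 comparisons, while the other genes lie between -1.38 and 1.30.

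The factors of T lineage commitment behaved differently from each other. Tcf7 (chr11:52252371-52283014 of GRCm38, minus strand) had normalised counts of 1276, 1211, 1274, 2557 and 1689 in DETC libraries 1, 2, 3, a and b. In the 15 other libraries it lay between 36.4 and 139.7, with the lowest value in HFSC 4 and the highest in Thy1hi 4. The groups did not overlap, and the lowest DETC library was far above the highest of the rest. The log2 difference was 4.40 ± 0.34 (SE) from Thy1hi cells (adjusted p = 2.72e-09, limma) and between 4.32 and 4.75 from the other 3 populations, and the DETC mean was 20.4 to 27.1 times the others. The residual level was 3.69% to 4.90% of the DETC mean, between those of the T cell markers Cd3e, at most 1.08% in the same populations, and Cd3d, at 7.89% to 15.4%.

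Bcl11b (chr12:107910403-108003602, minus strand) did not separate T cells from keratinocytes. It had 1201, 1099, 1387, 1469 and 1389.5 normalised counts in the DETC libraries, 1966, 1315, 1675 and 2172 in the Thy1hi libraries, and 1093, 1473, 1075 and 2121 in the Thy1- libraries. HFSCs had 1094, 1011, 1145 and 905, and the YFP+ cells 1804, 1293 and 2110.4. DETC values overlapped those of every other population. The log2 difference of DETCs was -0.43 (95% interval -0.85 to -0.01, adjusted p = 0.108, limma) from Thy1hi cells, -0.09 (-0.51 to 0.33) from Thy1- cells, 0.33 (-0.09 to 0.75) from HFSCs and -0.39 (-0.84 to 0.07) from YFP+ cells. The first of these was called after rescaling to the same total and after quantile normalization, where it was -0.51 and -0.70, without Thy1hi library 2 (-0.57, adjusted p = 0.0462) and with the replicate block in a fit of 2 populations (-0.41, adjusted p = 0.0303). The difference from YFP+ cells was called after quantile normalization (-0.78, adjusted p = 0.00655) and with that block (-0.48, adjusted p = 0.0278). With that block, the differences from Thy1hi and YFP+ cells each rest on 3 same-numbered pairs of libraries. DETC a and b do not bear on them, and that the numbers pair these libraries is an assumption. Thy1hi cells were higher than HFSCs by 0.76 ± 0.21 (SE; adjusted p = 0.0210, limma), with no overlap of libraries. That call was lost without HFSC 4, Thy1hi 1 or Thy1hi 4 (0.65 to 0.70, adjusted p from 0.0511 to 0.0698). It was also lost after quantile normalization (0.58, adjusted p = 0.0675) and with the replicate block in a fit of 2 populations (adjusted p = 0.0667). Its paralogue Bcl11a, a zinc finger factor of B cells and neurons, was lower in DETCs than in Thy1hi cells by -1.02 ± 0.33 (SE; adjusted p = 0.0180, limma), with no call without Thy1hi 4 (-0.86, adjusted p = 0.0706).

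Runx3 (chr4:135120652-135177990, plus strand), which also controls the integrin CD103, had the highest mean of the 9 genes in DETCs. Its values there were 2133, 2421, 2237, 5296 and 2579.7, against 11.2 to 96.7 in the 15 other libraries. The log2 difference was 6.05 ± 0.46 (SE) from Thy1hi cells (adjusted p = 2.68e-09, limma), 6.49 from Thy1- cells, 5.80 from HFSCs and 6.88 from YFP+ cells. The DETC mean was 47.1 to 128 times the others. Library a was the highest, and the lowest DETC library still lay far above HFSC 2, the highest of the rest. Itgae, which encodes the α chain of CD103, was higher in DETCs than in Thy1hi cells (log2 difference 6.45 ± 0.46, SE, adjusted p = 1.09e-09, limma), a gene named after its values were seen. Runx3 is transcribed from a distal and a proximal promoter, which a count per gene does not separate. The 250 bases before 3 RefSeq start sites (GRCm38.p6) are shown because they let the promoter of a factor high in DETCs, Runx3 distal (chr4:135120395-135120644, plus strand), be set beside that of another, Tbx21 (chr11:97115332-97115581, minus strand), and that of a shared one, Rora (chr9:68653536-68653785, plus strand). Capitals mark the RUNX sequence TGTGGTT or its reverse complement AACCACA.
Runx3 distal: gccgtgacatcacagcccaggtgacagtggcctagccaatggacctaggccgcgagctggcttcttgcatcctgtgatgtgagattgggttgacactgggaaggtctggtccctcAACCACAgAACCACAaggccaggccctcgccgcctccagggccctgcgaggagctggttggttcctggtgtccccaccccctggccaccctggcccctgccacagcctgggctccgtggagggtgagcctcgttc
Tbx21: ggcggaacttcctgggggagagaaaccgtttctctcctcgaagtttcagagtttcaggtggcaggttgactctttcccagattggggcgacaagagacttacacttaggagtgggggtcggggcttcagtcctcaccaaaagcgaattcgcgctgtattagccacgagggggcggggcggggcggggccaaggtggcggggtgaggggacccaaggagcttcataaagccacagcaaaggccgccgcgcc
Rora: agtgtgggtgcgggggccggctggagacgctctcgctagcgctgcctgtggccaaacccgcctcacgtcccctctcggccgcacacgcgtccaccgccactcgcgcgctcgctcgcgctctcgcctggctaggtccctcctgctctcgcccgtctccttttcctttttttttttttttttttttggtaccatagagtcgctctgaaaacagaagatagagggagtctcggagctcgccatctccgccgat
The Runx3 distal window held the RUNX sequence at 2 places, beginning 135 and 127 bases before the start site, and the windows of Tbx21 and Rora at none. Of 32851 mouse promoters searched over the same length and on both strands, 4.40% held it, and of the 10 windows of 7 members in the table, 1. The Ikaros core TGGGAA lay 154 bases before the distal Runx3 start, 177 before that of Tbx21 and 171 before that of Sox13. It was thus in 3 of the 10 windows, against 21.6% of all promoters. The windows of Ikzf1 and Tcf7, both high in DETCs, did not hold it. Neither the distal Runx3 nor the Tbx21 window held CTTTGA of TCF factors (13.8%), AGGTCA of ROR factors (14.0%) or GGTGTGA of T-box factors (3.33%). The matches overlapped no other motif searched. They describe the letters of these windows.

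The Ikaros family was split. Ikzf1 (chr11:11685003-11772926, plus strand) had 2049.8, 1667, 1852, 3205 and 1747 normalised counts in DETCs and 2.10 to 32.1 elsewhere, the widest separation of the 9 genes. The log2 difference was 6.83 ± 0.53 (SE) from Thy1hi cells (adjusted p = 3.66e-09, limma) and 7.60 ± 0.58 from YFP+ cells (adjusted p = 3.00e-09). Its residual level in the other populations, 0.455% to 1.05% of the DETC mean in population means, was the lowest of the 9 genes by its median over the 15 libraries.

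Ikzf3 (chr11:98464902-98546031, minus strand) was lower and more variable. DETC libraries had 489, 241, 222, 395 and 173 normalised counts, Thy1hi cells 21.0, 50.05, 6.50 and 10.7, and Thy1- cells 21.9, 15.0, 3.16 and 5.74. HFSCs had 2.10 to 7.60, and the YFP+ cells 1.99, 7.74 and 0, which are 2, 10 and 0 reads. All DETC libraries were above all others, and the log2 difference was 4.0 ± 0.64 (SE) from Thy1hi cells (adjusted p = 4.38e-05, limma), 4.81 from Thy1- cells, 5.49 from HFSCs and 6.58 from YFP+ cells. Between YFP+ and Thy1hi cells it was -2.58 (95% interval -4.09 to -1.06), which did not pass (adjusted p = 0.256, limma) and which rests on 12 and 76 reads in all.

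Among their relatives, Ikzf2 (Helios) had 661 normalised counts in DETCs and 711 in Thy1hi cells, a log2 difference of -0.15 (95% interval -0.66 to 0.36). Ikzf5 was higher in DETCs by 0.62 ± 0.17 (SE; adjusted p = 0.00569, limma), and Ikzf4 lower by -1.39 ± 0.47 (SE; adjusted p = 0.0248), with means of 10.6 and 24.7 and no call without DETC library a (adjusted p = 0.0568), Thy1hi 2 (0.0652) or Thy1hi 4 (0.0537).

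Tbx21 (chr11:97098071-97115331, minus strand) had the lowest mean of the 5 factors high in DETCs. DETC libraries 1, 2 and 3 had 127, 88.5 and 90.1 normalised counts and libraries a and b 35.7 and 24.0. Thy1hi cells had 4.42, 3.95, 12.2 and 5.82, and the remaining 11 libraries 0 to 3.46, or at most 3 reads each. The DETC libraries all lay above the rest. The log2 difference was 3.16 ± 0.53 (SE) from Thy1hi cells (adjusted p = 8.37e-05, limma) and 4.30 to 4.49 from the others. The 4 Thy1hi libraries had 28 reads in all, 15 of them in Thy1hi 3, against 9, 8 and 7 in Thy1- cells, HFSCs and YFP+ cells. Thy1hi 2 had 3 reads, the same as the highest library of each of these populations. No difference of Thy1hi cells from them was called (adjusted p = 0.714, 0.125 and 0.576, limma).

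Most genes of a list for the type 1 and residency programme were also higher in DETCs. Of 15 listed genes 13 were tested, and 12 were higher and 0 lower in DETCs than in Thy1hi cells (19.9% and 16.6% of all genes), with a median log2 difference of 4.87. DETC libraries alone could pass the filter on low values, which favours higher calls. The count describes these genes and is no test of the programme. The largest were Il2rb, the IL-2 and IL-15 receptor chain, at 7.12 ± 0.63 (SE), the granule gene Nkg7 at 6.70 ± 0.67 and perforin (Prf1) at 6.46 ± 0.53 (adjusted p = 2.18e-08, 1.15e-07 and 8.27e-09, limma). The other 2 genes, Ifng and Cxcr3, named here after their values were seen, were not tested, with 1 to 19 and 1 to 27 reads in the DETC libraries. The other T-box genes listed, Eomes and Tbr1, had means of 10.3 and 3.92 normalised counts in DETCs and were not called.

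The factors of the type 17 programme were not restricted to DETCs. Rora (chr9:68653786-69388246, plus strand), a nuclear receptor, had 1875, 1431, 1689, 1049.6 and 1689.8 normalised counts in DETCs and 2528, 2292, 2687 and 2817 in Thy1hi cells. Thy1- cells had 2078, 2026, 2313 and 2040.3, HFSCs 1606, 1214, 1884 and 1321, and YFP+ cells 2451, 1814 and 2255. Every DETC library lay below every Thy1hi and Thy1- library, while DETCs overlapped HFSCs and YFP+ cells. DETCs were lower than Thy1hi cells by -0.76 ± 0.17 (SE; adjusted p = 0.00136, limma), than Thy1- cells by -0.48 ± 0.17 (adjusted p = 0.0365) and than YFP+ cells by -0.51 ± 0.19 (adjusted p = 0.0373), and differed from HFSCs by 0.03 (95% interval -0.33 to 0.39). Without DETC library a, the lowest, the difference was -0.34 from Thy1- cells and -0.37 from YFP+ cells, neither called (adjusted p = 0.0956 and 0.0824, limma). The call against Thy1- cells was also lost without DETC 2 or any single Thy1- library (-0.43 to -0.50, adjusted p from 0.0576 to 0.0978), and that against YFP+ cells without DETC 2, YFP+ 1 or YFP+ 3 (-0.41 to -0.49, adjusted p from 0.0673 to 0.163). With edgeR neither was called (adjusted p = 0.0651 and 0.0521). Thy1hi cells were higher than HFSCs by 0.79 ± 0.18 (SE; adjusted p = 0.00531), and Thy1- cells by 0.51 (0.13 to 0.89, adjusted p = 0.0976). The first was not called after quantile normalization (0.58, adjusted p = 0.0555, limma). The second was called after rescaling to the same total (0.64, adjusted p = 0.0425), with the replicate block over all populations (adjusted p = 0.0118) and without DETC a (adjusted p = 0.0370).

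Maf (chr8:115682942-115707794, minus strand), a bZIP factor, had 660.4, 539, 622, 606 and 531 normalised counts in DETCs, the narrowest spread among them of the 9 genes (coefficient of variation 9.39%). Thy1hi cells had 816, 778, 939 and 1095, Thy1- cells 548, 579, 556 and 794, HFSCs 1187, 786, 1060.5 and 1219, and YFP+ cells 1048, 883 and 1278. DETCs lay below every Thy1hi, HFSC and YFP+ library and overlapped Thy1- cells. They were lower by -0.61 ± 0.17 (SE; adjusted p = 0.00634, limma) than Thy1hi cells, by -0.83 ± 0.17 (adjusted p = 0.000487) than HFSCs and by -0.84 ± 0.18 (adjusted p = 0.000961) than YFP+ cells. The difference from Thy1- cells was -0.05 (95% interval -0.40 to 0.29). Of its relatives, Mafa, Maff, Mafg and Mafk were not called against Thy1hi cells, at log2 differences of -0.10 to 0.60.

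Sox13 (chr1:133382303-133424377, minus strand) was the least abundant of the 9 genes in DETCs. DETC libraries had 25.4, 25.4, 30.04 and 24.0 normalised counts in libraries 1, 2, 3 and b and 9.60 in a, Thy1hi cells 9.94, 13.2, 8.13 and 3.88, and Thy1- cells 13.4, 33.6, 13.4 and 21.3. HFSCs had 42.7, 71.7, 58.8 and 61.0, and YFP+ cells 5.98, 24.8 and 12.9. The HFSC libraries lay above all 16 others, while DETC library a lay within the range of Thy1hi cells. HFSCs were higher than DETCs, the log2 difference of DETCs being -1.38 ± 0.43 (SE; adjusted p = 0.0144, limma), and Thy1hi cells were lower than HFSCs by -2.68 ± 0.45 (adjusted p = 0.000389). DETCs were higher than Thy1hi cells by 1.30 ± 0.43 (adjusted p = 0.0211), with 116 against 33 reads in all. That call was lost without DETC library 3 (1.19, adjusted p = 0.0517) or Thy1hi library 4 (1.002, adjusted p = 0.0913), and the call against HFSCs without both DETC a and HFSC 4 (-1.08, adjusted p = 0.0756). Of the SoxD relatives of Sox13, Sox5 was also higher in DETCs than in Thy1hi cells, by 2.33 ± 0.50 (SE; adjusted p = 0.000979), and Sox6 was lower by -2.38 ± 0.31 (adjusted p = 3.16e-06).

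The other genes of the type 17 list had calls in both directions. Of 12 listed genes 9 were tested, 4 higher and 3 lower in DETCs than in Thy1hi cells (19.9% and 16.6% of all genes), with a median log2 difference of 0.25. Higher were Cd163l1, a scavenger receptor of γδ T cells, at 5.65 ± 0.59 (SE; adjusted p = 2.22e-07, limma), the chemokine receptor Ccr6 at 2.62 ± 0.72 (adjusted p = 0.00650) and the kinase Blk at 2.10 ± 0.72 (adjusted p = 0.0259). The call of Blk was lost without DETC 1, 2 or 3 or Thy1hi 1 or 4 (1.79 to 1.95, adjusted p from 0.0578 to 0.0909). Ccr6 and Blk passed the filter on low values through DETC libraries alone (at most 5.35 and 4.86 elsewhere), which favours a higher call. Lower were Etv5, Sox4 and the IL-1 receptor Il1r1, at -1.36, -1.32 and -1.22. The cytokine genes Il17a, Il17f and Il22, named here after their values were seen, were not tested, with at most 4, 9 and 2 reads in any DETC library.

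**Figure D3:**
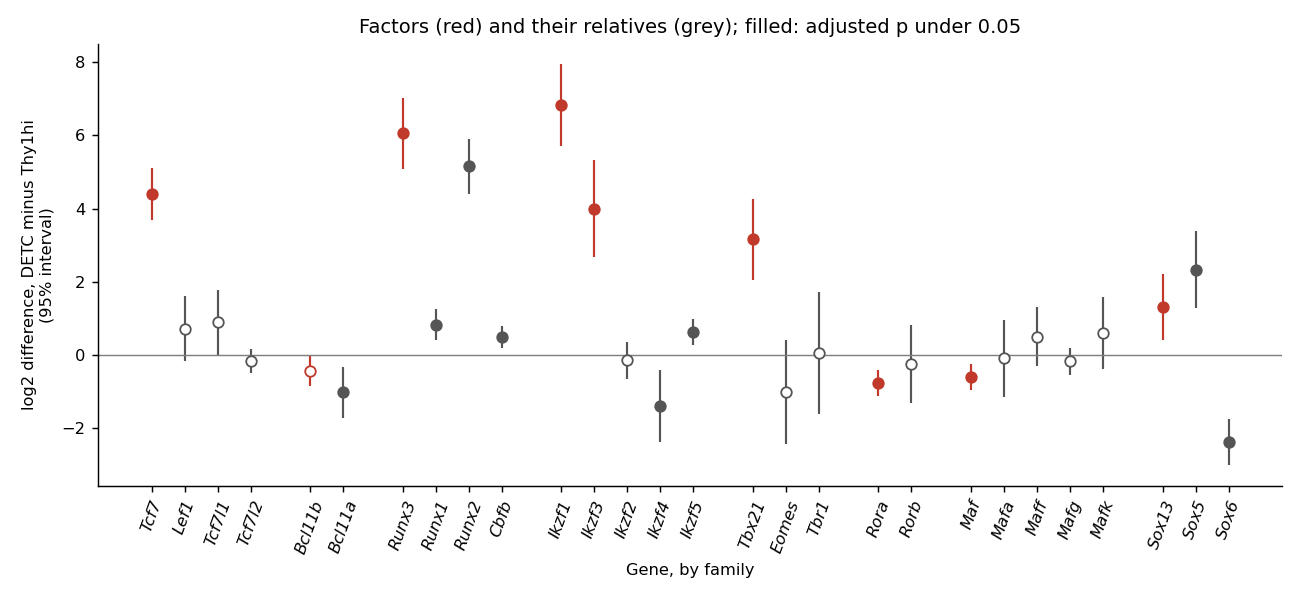
The y axis gives the log2 difference of DETCs from Thy1hi cells with its 95% interval, and the x axis the factors (red) beside their relatives (grey), with filled points for an adjusted p under 0.05. Runx2 at 5.15 lies near Runx3 at 6.05, whereas Ikzf2 at -0.15 lies apart from Ikzf1 at 6.83, and Sox5 and Sox6 lie on opposite sides of 0.

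Over all 21 relatives tested, 5 were higher, 4 lower and 12 not called against Thy1hi cells, shares near the 19.9% and 16.6% of all genes. Among the RUNX genes and their shared subunit Cbfb, Runx2, better known from bone, was higher by 5.15 ± 0.37 (SE; adjusted p = 1.09e-09, limma), as were Runx1 by 0.82 ± 0.20 (adjusted p = 0.00277) and Cbfb by 0.49 ± 0.15 (adjusted p = 0.0112), which was not called without Thy1hi 2 (0.39, adjusted p = 0.0558). Against the other populations these genes diverged. Runx2 was higher in DETCs in all 4 comparisons, by 3.80 to 5.68. Runx1 was lower in DETCs than in Thy1- cells by -0.65 (adjusted p = 0.0168, limma) and than in HFSCs by -1.51 (adjusted p = 4.92e-06) and was not called against YFP+ cells. Cbfb was higher than in Thy1- cells by 0.42 (adjusted p = 0.0321) and was not called against HFSCs or YFP+ cells, at 0.36 and 0.40. Runx2 had 774 to 2210.4 normalised counts in DETCs and 8.92 to 104.1 elsewhere. None of the Tcf7 relatives was called, with Lef1 at 0.71, Tcf7l1 at 0.89 and Tcf7l2 at -0.17. Among 38 tested genes of a wider list of T lineage factors, 15 were higher and 11 lower against Thy1hi cells, beside 19.9% and 16.6% of all genes, with a median of 0.29. The largest rises were Tox at 5.75 ± 0.51 (adjusted p = 2.18e-08, limma), Fli1 at 4.90 ± 0.44 and Batf at 4.88 ± 0.65. Batf passed the filter on low values through DETC libraries alone (at most 6.41 elsewhere), which favours a higher call. The largest falls were Bhlhe40 at -1.90 ± 0.53 (adjusted p = 0.00702, limma), the Notch target Hes1 at -1.70 ± 0.51 and Id3 at -1.64 ± 0.43.

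Levels were compared between genes per kilobase of exon. In DETCs the mean normalised count per kilobase was 610.0 ± 216 (SD, n = 5) for Tcf7 and 586 ± 266 for Runx3, followed by 364 ± 109 for Ikzf1, 161 ± 18.9 for Bcl11b, 118 ± 24.5 for Rora and 71.8 ± 6.74 for Maf. Ikzf3 had 34.7 ± 15.2, Tbx21 29.4 ± 17.1 and Sox13 5.31 ± 1.80. In Thy1hi cells the order was led by Bcl11b at 219.7 ± 45.9 (SD, n = 4), Rora at 197 ± 17.3 and Maf at 110.1 ± 17.3, and no other of the 9 genes exceeded 29.9.

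**Figure D4:**
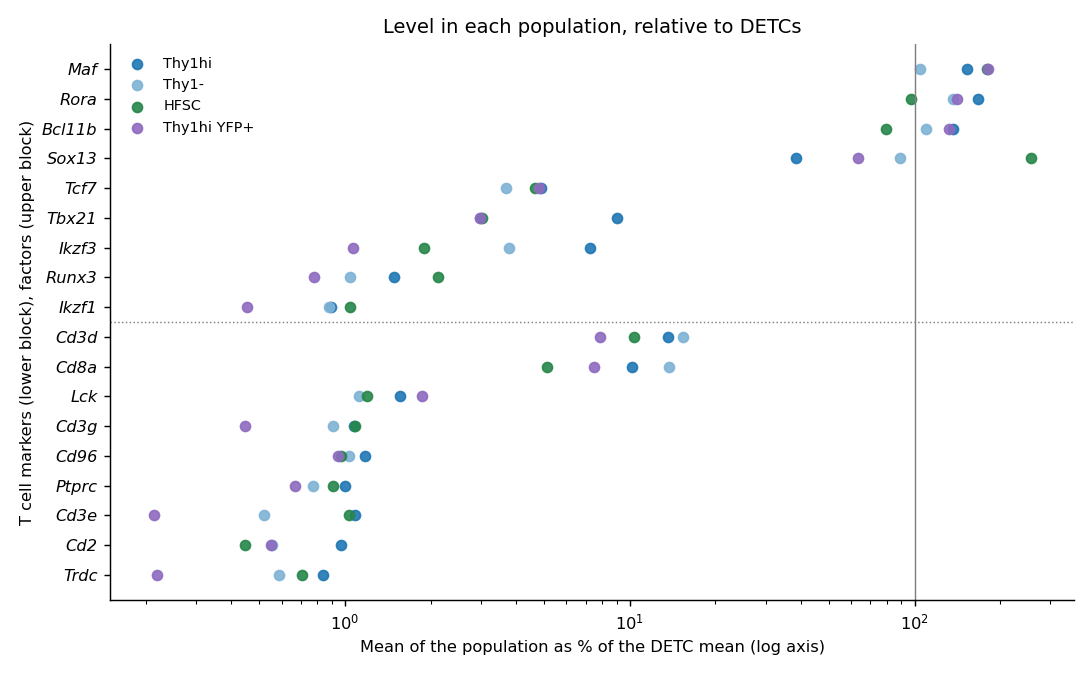
The x axis (log scale) gives each population's mean as a percentage of the DETC mean, and the y axis the 9 factors in the upper block and 9 T cell markers in the lower block. Ikzf1 and Runx3 lie among most T cell markers near 1%, Tcf7, Tbx21 and Ikzf3 reach 3% to 9% in some populations, and Rora, Maf and Bcl11b lie between 79.4% and 181%.

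The levels were set beside those of T cell markers in the keratinocyte libraries and of keratinocyte markers in the DETC libraries. Over the 15 libraries the median residual level of the T cell markers ran from 0.515% (Trdc) to 10.3% (Cd3d) of the DETC mean, and that of the 5 factors high in DETCs from 0.857% (Ikzf1) to 4.11% (Tcf7). The part of residual T cells in the keratinocyte levels of these factors was not tested. The DETC libraries had Rora at 40.7% to 72.6%, Maf at 58.5% to 72.8% and Bcl11b at 61.7% to 82.5% of the Thy1hi mean. The summed keratinocyte markers were at 5.11% to 23.5% of it in these libraries, and at 38.6% to 62.0% in Thy1- libraries. In library a, with keratinocyte markers at 5.11%, Maf was at 66.9%, Bcl11b at 82.5% and Rora at 40.7%. The part of keratinocytes in the DETC levels of these factors was not tested either.

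**Figure D5:**
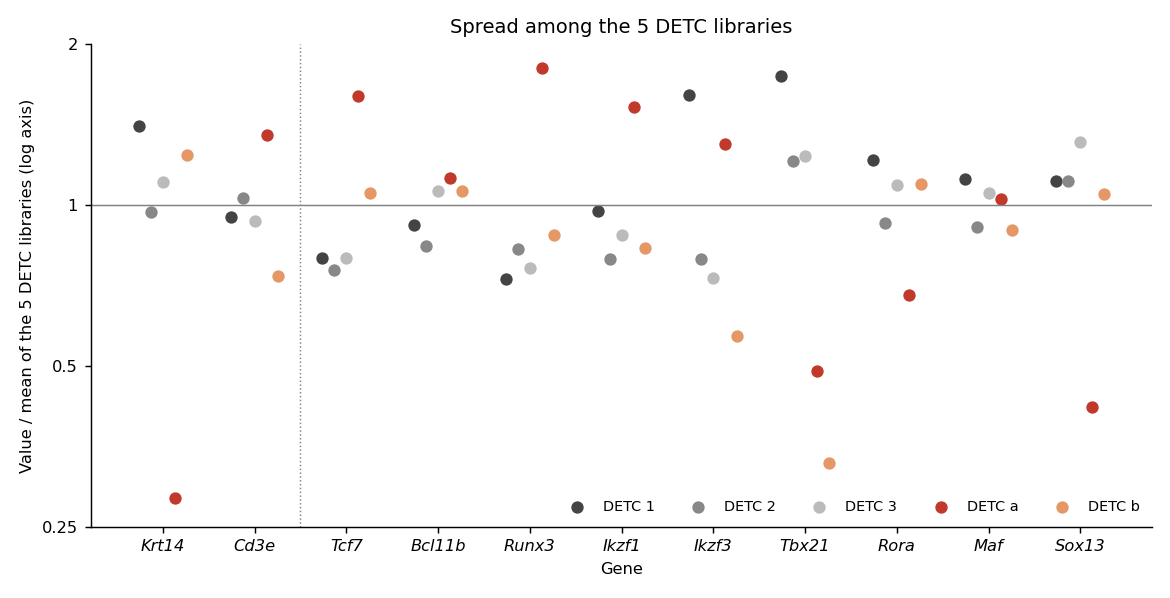
The y axis (log scale) gives each of the 5 DETC libraries relative to their mean, and the x axis Krt14 and Cd3e followed by the 9 factors. Library a is lowest for Krt14, Rora and Sox13 and highest for Cd3e, Tcf7, Runx3, Ikzf1 and Bcl11b, and library b is lowest for Tbx21 and Ikzf3.

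Among the DETC libraries the factors did not vary together. Library a was higher than the mean of the other 4 by 2.26 times for Runx3, 1.88 times for Tcf7 and 1.75 times for Ikzf1. For other T cell genes it was at 2.20 times for Il2rb, 1.94 times for Ptprc and 0.691 times for Cd8a. It was at 1.03 times for Maf and 1.16 times for Bcl11b, and below the others at 0.628 times for Rora, 0.433 times for Tbx21 and 0.366 times for Sox13. With library a and HFSC 4 both left out, the counts of called factors in DETCs were 8 against Thy1hi cells, 5 against Thy1- cells, 6 against HFSCs and 6 against YFP+ cells, where 36.3%, 32.3%, 34.5% and 37.6% of all genes were called in either direction.

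Fewer factors were called between the keratinocyte populations. Between Thy1hi and Thy1- cells 0 factors were called by limma, and 0 by edgeR and by DESeq2, where by limma 0.337% of all genes were, and 2 factors had an unadjusted p under 0.05: Maf, at 0.55 (95% interval 0.19 to 0.92), and Sox13, at -1.13 (-2.08 to -0.19). With the replicate number as a block, which these libraries share, 1 factor was called: Maf was higher in Thy1hi cells by 0.55 (adjusted p = 0.00962, limma), where 6.61% of all genes were called. Between YFP+ and Thy1hi cells 0 factors were called by limma, edgeR or DESeq2, where by limma 0.0116% of all genes were, and Ikzf3 alone had an unadjusted p under 0.05. Thy1hi cells and HFSCs differed in 3 factors (Rora, Bcl11b and Sox13, above), where 13.4% of all genes did. Between Thy1- cells and HFSCs 2 factors were called, both lower in Thy1- cells, where 6.08% of all genes were: Maf by -0.78 ± 0.18 (SE; adjusted p = 0.0106, limma) and Sox13 by -1.55 ± 0.45 (adjusted p = 0.0462). Maf was not called with only these populations in the fit (adjusted p = 0.0585) or with the replicate block there (0.0841). Sox13 was not called without any single HFSC library, DETC 1, 2, 3 or b, Thy1hi 1 or 3, Thy1- 1 or 3 or YFP+ 3 (-1.39 to -1.69, adjusted p from 0.0510 to 0.152).

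Genes with the most similar pattern over the 20 libraries differed between the 2 kinds of factor. For the factors high in DETCs they were Crem (Pearson r = 0.986), Bpnt1 and Cd7 for Tcf7, Trim36 (0.991), Gcnt1 and Ikzf1 for Runx3, and Spn (0.994), Fgd3 and Inpp5d for Ikzf1. Those of Ikzf3 were Il18rap (0.966), Tmem156 and Serpinb6b, and those of Tbx21 were Bin2 (0.948), Esyt1 and Nr4a2. Several are known from lymphocytes, such as Cd7, Spn (CD43), Inpp5d (SHIP1) and Il18rap, and these r values span the separation of DETCs from the other populations. Nearest to Rora were Wnt3 (0.938), Bmp3 and Bmp4, to Sox13 Nkd1 (0.916), Trps1 and 9530086O07Rik, to Maf Nf2 (0.901), Anapc5 and Parp1, and to Bcl11b Hnrnpul1 (0.904), 2610507B11Rik and Cdkn2c.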

How the data were processed

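The deposited values are DESeq2-normalised read counts (a signal of whole reads divided by a size factor per library), which the authors made from STAR alignments to mm10 counted with featureCounts on Ensembl genes. The strand setting is not given in the sources used here. Per the labels the mRNA libraries were made with 1 of 2 kits, and which library used which is not given, so kit and population cannot be told apart. Multiplied by the size factor, 100% of the low values gave whole reads (within 0.1 reads). In Thy1- library 4 the values of 3212 genes stood in the rows that sorting names without hyphens gives, and were put back. The correlation with the other Thy1- libraries at 1153 expressed genes among them rose from 0.0579 to 0.929. No factor described here was among them.

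The 17204 genes that reached 10 in 3 or more libraries entered a limma 3.58.1 fit in R 4.3.3. It used log2(value + 1) of the 20 libraries, 1 mean per population and a trended eBayes step, two-sided. A difference on this scale understates the change of low genes. DETC libraries alone could pass the filter, and Tbx21, Ccr6, Blk, Batf, Trac, Cd4 and Cd8b1, among others, would not have passed it on the other populations. Higher calls in DETCs are favoured for such genes, so counts of calls beside the share of all genes are descriptive. Alternatives included edgeR 4.0.16 and DESeq2 1.42.0 on the whole reads. The fit was also run on simulated data in which far fewer genes differed between DETCs and Thy1hi cells than here. That run therefore gives no error rate for these data. Same-numbered Thy1hi and Thy1- libraries deviated together (r 0.293 to 0.716, against -0.651 to 0.514 between different numbers). Same-numbered DETC and HFSC libraries did so less (0.170 to 0.333, against -0.318 to 0.371). These ranges overlap, so pairing by number is an assumption. The block was also used where same-numbered libraries did not stand out, as for DETCs and Thy1hi cells (-0.118 to 0.147, against -0.395 to 0.433). For YFP+ cells the methods describe other mice, so a shared number need not mean shared mice. The block left the 7 factors called between DETCs and HFSCs.

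The factors and gene lists were chosen with earlier results of these data known. Genes named from other lists are the 3 largest rises and falls called against Thy1hi cells and the relatives of each factor, and 3 genes by correlation for each factor. Coordinates are of GRCm38, with gene spans as in GENCODE M21. Antisense genes of low count share exons with Rora and Maf (means at most 3.83). Promoter sequences are from RefSeq. Maf and Ikzf3 are not in that table. Figures were drawn with matplotlib 3.10.9. Of the relatives counted, 2 are not reported here by name.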

Additional observations from a re-analysis of the deposited data

Results flagged for a closer look

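In 36 sets of 4 or 5 libraries (9 factors in 4 populations), 4 values, from 2 libraries, lay apart from their population by the gap to the nearest library over the whole range. Chance flags about 1 in 20 such sets. In DETCs, library a was highest for Runx3 at 5296 normalised counts (others 2133 to 2579.7) and for Ikzf1 at 3205 (others 1667 to 2049.8). The same library had the lowest Krt14 and the highest Ptprc of the DETC libraries, and the part of its lower keratinocyte level in these values was not tested. In Thy1- cells, library 4 was highest for Maf at 794 (others 548 to 579), and lowest for Tbx21 at 1.64 (others 2.31 to 2.43), which is 2 reads.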

How the results depend on the processing

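Across 33 alternatives the number of factors called in DETCs against each other population kept within 1.5 times its value, and none of the 57 called single-gene differences that were followed changed direction. The count for Thy1- cells against HFSCs, 2, was the least stable. It was 1 with a pseudocount of 0.1, with no filter, with a mean of at least 50 and with only these populations in the fit, and 1 to 3 when a library was left out. Each of HFSC 1, 2 and 3, DETC 1, 2, 3 and b, Thy1hi 1 and 3, Thy1- 1 and 3 and YFP+ 3 gave 1 when left out, since Sox13 was then no longer called. With the replicate block and 2 populations it was 0. Quantile normalization left 1 factor, Sox13, between Thy1hi cells and HFSCs. Between Thy1hi and Thy1- cells the replicate block gave 1 factor, Maf, in either form, and the block over all populations gave 1, Ikzf3, between YFP+ and Thy1hi cells. Relatives called against Thy1hi cells were 14 with the block and 2 populations. The cause of these changes was not tested. The block changed no other count by over 1.5 times.

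Differences near 0 changed sign: Rora between DETCs and HFSCs was -0.41 after quantile normalization and -0.065 to 0.16 with a library left out. Bcl11b between them was -0.12 after quantile normalization. With the replicate block, Maf between DETCs and Thy1- cells was 0.081 over all populations and 0.11 with 2 (-0.11 to 0.072 with a library left out), and Bcl11b 0.027 with 2 (-0.21 to 0.12). Low reads limit Ikzf3 and Tbx21 outside DETCs, and Tbx21 in DETC a and b as well, at 26 and 20 reads. Sox13 was limited in every population but HFSCs, with 7 to 38 reads in DETC libraries and 37 to 87 in HFSC libraries.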
